A study of Arabidopsis thaliana with 4 samples.

Results

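The 10 loci described here were 5 regulators of anthocyanin synthesis, namely MYB113 (AT1G66370), MYB75 or PAP1 (AT1G56650), MYB90 or PAP2 (AT1G66390), MYB114 (AT1G66380) and TT8 (AT4G09820), and 5 genes of the late steps, namely DFR (AT5G42800), LDOX (AT4G22880), UF3GT (AT5G54060), 5GT (AT4G14090) and TT19 or GSTF12 (AT5G17220). They were taken from 34252 gene identifiers on the array, of which 21729 had enough signal to be tested. The loci were selected on the measured difference between the genotypes on these same arrays, so their values here are a description and no test of them is given. RNA came from whole Arabidopsis thaliana seedlings that had grown for 10 days and then stood on medium with 150 mM NaCl for 1 day. The wild type was Col-0, and the mutant was sahy9-1 (sahy9/apum23), a single T-DNA line with the insertion in an exon of APUM23, the gene of a nucleolar Pumilio protein. Each genotype had 2 biological replicates, each on an Agilent array of its own. All 4 samples had salt and seedlings without it were not analysed here, so a difference between the genotypes cannot be divided into one that salt brings out and one that is always there. Whole seedlings mix shoot and root, and in such samples fewer cells that express a gene and less RNA per cell cannot be told apart.

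Anthocyanins are the red and purple flavonoid pigments of the vacuole, which seedlings make under sugar, strong light, cold, drought and salt. The late genes of the pathway are switched on by a complex of an R2R3 MYB factor, a bHLH factor and the WD40 protein TTG1. MYB75, MYB90, MYB113 and MYB114 are closely related and act as the MYB part, and TT8 is a bHLH part. DFR reduces dihydroflavonols to leucoanthocyanidins, which LDOX oxidizes to anthocyanidins. UF3GT and 5GT add sugars to the pigment, and TT19 is a glutathione transferase that is needed for pigment to reach the vacuole.

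Levels are given as log2 of the background-subtracted intensity divided by that at the 75th percentile of the gene spots on the same array, so that a level of 0 is a fairly bright spot. Differences are sahy9-1 minus Col-0 on this log2 scale, as means with SD over n = 2 arrays per genotype. Between 74.6% and 76.3% of the gene spots on an array were well above background, and 0 were saturated. APUM23, the gene hit in the mutant, lay at -0.61 and -0.41 on the Col-0 arrays and at -3.34 and -3.58 on the sahy9-1 arrays, a difference of -2.95 (standard error 0.12, adjusted P = 0.00098 in limma). Where its probe lies relative to the insertion was not checked. The 4 green tissue markers (RBCS1A, CAB1, LHB1B2, LHCA3) and the 4 root markers (PYK10, COBL9, EXPA7, SCR) exceeded the background on each of the 4 arrays. The summed level of the green tissue markers was 333 and 338 times the 75th percentile in Col-0 and 275 and 294 times in sahy9-1, and that of the root markers was 50.4 and 52.6 times against 41.4 and 41.8 times. Nearly all of the root sum was PYK10, at log2 levels of 5.61 and 5.67 against 5.32 and 5.33, while the differences of COBL9, EXPA7 and SCR were -0.36, -0.16 and 0.16. Of the 4 seed and flower markers (CRU3, CRA1, SESA1, AG), 1 was well above background on all 4 arrays and 2 were so on none, with summed levels of 0.0271 and 0.0260 against 0.0257 and 0.0353 times the 75th percentile. The part of tissue proportions in the differences below was not tested.

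The 10 loci did not move as one block. The 3 MYB activators with a signal above background were lower in sahy9-1, while TT8 and all 5 genes of the late steps were higher. Of the 9 loci that passed the signal filter, 2 were at least 3-fold lower, MYB113 and MYB90, and 0 were at least 3-fold higher. Over all genes tested, 1.67% were at least 3-fold lower and 1.68% at least 3-fold higher, 3.35% in all, and with an adjusted P of up to 0.05 as well the shares were 1.59% and 1.66%. MYB113 and MYB90, the 2 loci at least 3-fold lower, passed the filter only through their signal in Col-0. MYB114 did not pass it. The arrays of the genotypes did not overlap for any of the 9 loci, and for 80.3% of all genes tested they did not overlap either (40.0% with sahy9-1 higher and 40.3% with it lower). The median difference over the 9 loci was 0.31, also with MYB113 at its bound, against -0.0041 over all genes tested.

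**Figure D1:**
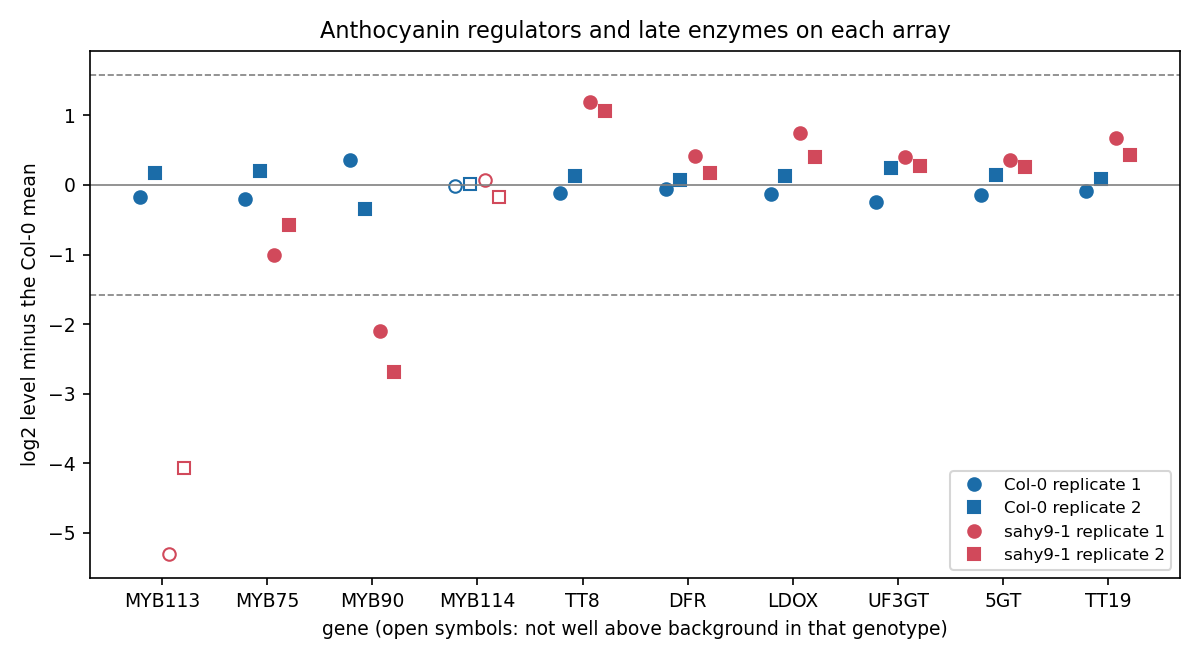
Level of each locus on each of the 4 arrays as log2 relative to the mean of the Col-0 arrays, with blue for Col-0, red for sahy9-1, circles for replicate 1 and squares for replicate 2. Open symbols are not well above background and dashed lines mark 3-fold. MYB113, MYB90 and MYB75 lie below the Col-0 mean in sahy9-1, and TT8 stands highest above it, at 1.19 and 1.07.

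MYB113 showed the largest drop. Its probe had intensities of 162 and 196 on the Col-0 arrays and of 5.42 and 11.3 on the sahy9-1 arrays. The last 2 values were not well above background, since the dimmest gene probes that were had 19.1 and 16.9 on those arrays. Both Col-0 arrays were thus bright enough to measure and neither sahy9-1 array was, so the mutant level is known only as a bound. With the sahy9-1 arrays set to the dimmest signals well above background, 19.1 and 16.9, MYB113 was 11.2-fold lower there. That bound is approximate, since the TT2 probe was brighter, at 20.9 and 20.3 in sahy9-1, and was not well above background either. On the log2 scale the Col-0 arrays lay at -4.13 and -3.79 and the sahy9-1 arrays at -9.26 and -8.02, a measured difference of -4.68. The scanner software put its own error on these spots at 10.6% and 10.3% of the signal in Col-0 and at 99.7% and 44.7% in sahy9-1. With another background correction (normexp with an offset of 50 on each intensity) the difference was -2.25, which is smaller than the bound. The offset exceeds the sahy9-1 intensities themselves, so this correction shrinks the change of so dim a spot by construction.

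MYB90 was measurable on all 4 arrays. Its intensities were 342 and 201 in Col-0 and 73.5 and 43.0 in sahy9-1. The levels were -3.06 and -3.76 in Col-0 (mean -3.41 ± 0.50, SD, n = 2) and -5.50 and -6.10 in sahy9-1 (mean -5.80 ± 0.42, SD, n = 2), a difference of -2.39, or 5.25-fold lower. The replicates stood far apart in both genotypes, by 0.70 in Col-0 and 0.60 in sahy9-1. The gap between the lower Col-0 array and the higher sahy9-1 array was still wider, at 1.74. Among all genes tested, 0.437% had a difference below that of MYB90.

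MYB75, the activator best known from overexpression lines with purple leaves, changed less than MYB90 did. It stood at 0.86 and 1.27 in Col-0 and at 0.056 and 0.49 in sahy9-1, so that its means were 1.06 ± 0.29 (SD, n = 2) and 0.27 ± 0.31 (SD, n = 2). The difference of -0.79 is a 1.73-fold decrease. The genotypes did not overlap, but the gap of 0.37 between them was smaller than the gap of 0.43 between the sahy9-1 arrays and of 0.42 between the Col-0 arrays. Without 1 array at a time the difference of MYB75 ranged from -0.57 to -1.01, and 6.59% of all genes tested had a lower value.

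MYB114 gave no measurable level in either genotype. Its intensities were 13.0 and 12.6 in Col-0 and 16.1 and 12.0 in sahy9-1, none of them well above background, and no fold change is given. MYB113, MYB114 and MYB90 are adjacent on chromosome 1, with MYB114 the only annotated locus between the other two, while 1180 annotated loci lie between MYB75 and MYB113. The 4 MYB genes are similar in sequence, and whether each probe reads only its own transcript was not tested. The MYB114 probe was dark on the arrays where MYB75 had intensities of 3463 to 6559 and MYB90 of 43.0 to 342.

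**Figure D2:**
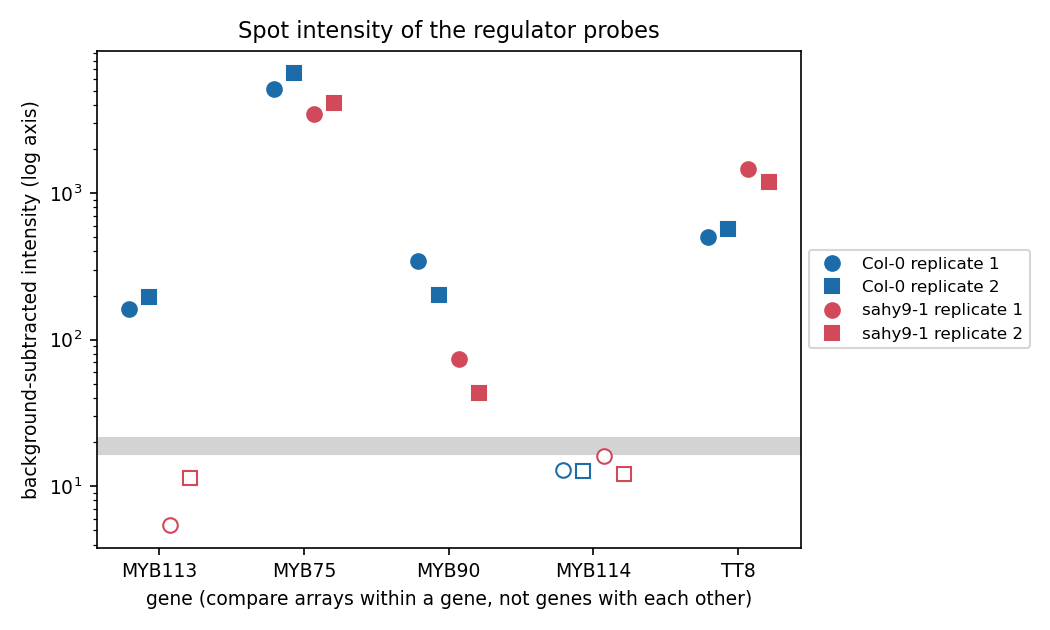
Background-subtracted intensity of the probes of the 4 MYB activators and TT8 on each array, on a log axis, with blue for Col-0 and red for sahy9-1. The grey band spans the dimmest signals well above background on the 4 arrays (16.7 to 21.2), and open symbols are not well above background. MYB113 falls from 162 and 196 to below the band in sahy9-1, MYB114 lies below it on all 4 arrays, and TT8 goes the other way.

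The loci around the 3 adjacent MYB genes did not show a drop of that size. The 3 nearest tested loci on the MYB113 side were ETR1, an ethylene receptor, AT1G66345 and RGL1, a DELLA repressor of gibberellin responses. In limma, which fits a linear model per gene and shares information on the spread among genes, RGL1 (P adjusted by Benjamini-Hochberg over all 21729 genes) was lower by a log2 value of -0.90 (standard error 0.089, adjusted P = 0.0039) and AT1G66345 was higher by 0.36 (standard error 0.067, adjusted P = 0.0138). With the normexp correction the difference of AT1G66345 was -0.038 (adjusted P = 0.921), and without sahy9-1 replicate 1 or 2 its adjusted P was 0.0782 or 0.0991. ETR1 differed by 0.14 (adjusted P = 0.187 in limma). The 3 on the MYB90 side, CML23, CAM4 and AT1G66430, differed by -0.11, -0.11 and -0.036, with adjusted P in limma from 0.272 to 0.775. None of these 6 loci reached 3-fold.

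TT8, the bHLH gene, was higher in the mutant. Its intensities were 501 and 568 in Col-0 and 1460 and 1187 in sahy9-1. The levels were -2.50 and -2.26 in Col-0 (mean -2.38 ± 0.17, SD, n = 2) and -1.19 and -1.31 in sahy9-1 (mean -1.25 ± 0.088, SD, n = 2). The difference of 1.13 is a 2.18-fold increase, and 96.8% of all genes tested had a lower value. The gap of 0.94 between the genotypes was wider than the 0.25 between the Col-0 arrays and the 0.12 between the sahy9-1 arrays. With the normexp correction the difference of TT8 was 0.74.

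The first late enzymes were slightly higher in sahy9-1. DFR stood at 2.57 and 2.70 in Col-0 and at 3.05 and 2.80 in sahy9-1, a difference of 0.29 or 1.22-fold. The gap of 0.10 between the nearest arrays of the genotypes was smaller than the 0.25 between the sahy9-1 arrays. LDOX stood at 0.73 and 1.00 in Col-0 and at 1.61 and 1.27 in sahy9-1, a difference of 0.58 or 1.49-fold. For LDOX too the gap of 0.27 between the genotypes was below the widest distance between replicates, 0.34.

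The glycosyltransferase genes behaved like DFR. UF3GT, whose enzyme adds xylose to the glucose of the pigment, lay at 0.76 and 1.26 in Col-0 and at 1.42 and 1.28 in sahy9-1. Its difference of 0.34 (1.26-fold) rested on the first Col-0 array, since the second lay only 0.021 below the nearest sahy9-1 array. Without Col-0 replicate 1 the difference of UF3GT was 0.090, and without Col-0 replicate 2 it was 0.58. 5GT, whose enzyme adds glucose at another position, lay at 0.39 and 0.68 in Col-0 and at 0.90 and 0.80 in sahy9-1, a difference of 0.31 (1.24-fold). The gap of 0.11 between the genotypes for 5GT was below the 0.29 between the Col-0 arrays.

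TT19 had 2 probes. The brighter probe gave 2.36 and 2.54 in Col-0 and 3.13 and 2.88 in sahy9-1, a difference of 0.55 or 1.47-fold. The dimmer probe gave -0.093 and -0.060 in Col-0 and 0.53 and 0.31 in sahy9-1, a difference of 0.50 or 1.41-fold. With either probe the gap between the genotypes (0.34 and 0.37) was wider than the distance between replicate arrays (at most 0.24 and 0.23). Among the 5 late genes, TT19 was the only one for which this was so. The differences of the 5 late genes lay above those of 75.1% (DFR), 87.9% (LDOX), 77.8% (UF3GT), 76.2% (5GT) and 87.0% (TT19) of all genes tested.

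**Figure D3:**
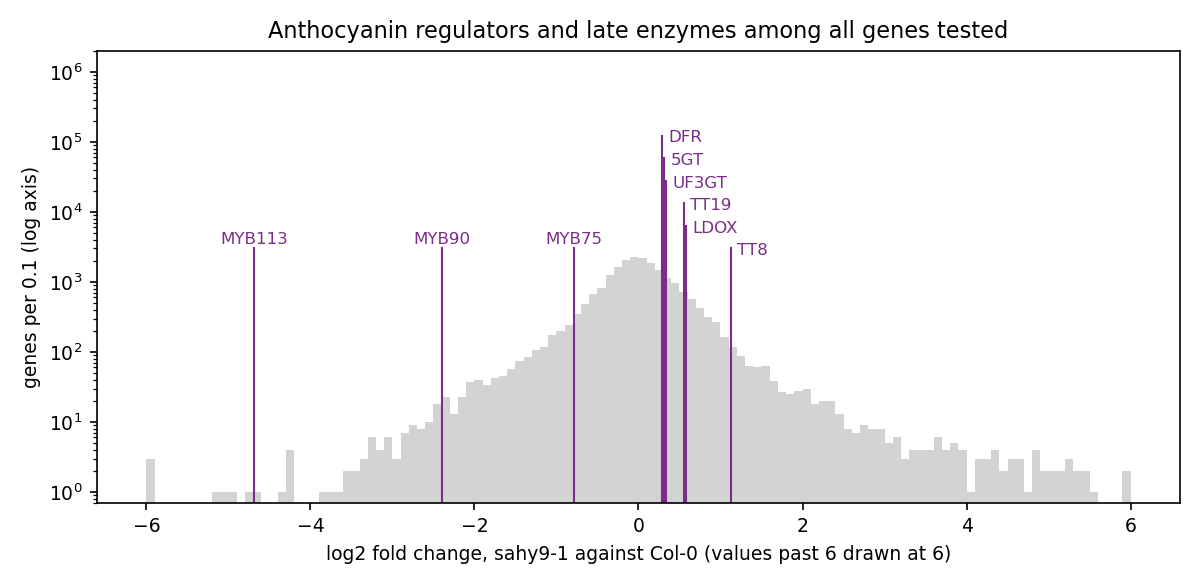
Number of genes in each step of 0.1 of the log2 fold change, sahy9-1 against Col-0, for all 21729 genes tested (grey, log axis), with a purple line at each of the 9 loci that passed the signal filter (line heights only separate the names). MYB113 is drawn at its measured -4.68, MYB90 at -2.39, and the 5 late genes between 0.29 and 0.58, inside the bulk of the distribution.

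Between the replicate arrays of 1 genotype the late genes also varied together, and some other genes of the pathway varied with them. The loci were chosen from these same 4 arrays, though on the difference between genotypes rather than between replicates. In sahy9-1, replicate 1 was above replicate 2 for TT8 and all 5 late genes, by 0.10 to 0.34, while 55.0% of all genes tested were higher in replicate 1 and the median of replicate 2 minus replicate 1 was -0.013. In Col-0, replicate 2 was above replicate 1 for the same 6 loci, by 0.13 to 0.49, while over all genes tested the median of that difference was 9.2e-05. Part of the other pathway genes showed the same order of replicates. It held in sahy9-1 for 6 of 6 early flavonoid enzymes, 7 of 7 other decoration genes and 41 of all 50 other pathway genes tested. In Col-0 it held for 4 of 6, 7 of 7 and 32 of 50. By list it further held in Col-0 for 7 of 10 repressors and 5 of 5 flavonol conjugation genes. It held there for only 3 of 8 phenylpropanoid entry genes, 2 of 5 light regulators, 1 of 3 epidermal MYB genes and 0 of 2 complex partners. MYB90 ran against the late genes in Col-0, where replicate 1 was the higher, and MYB75 and MYB113 (there not well above background) ran against them in sahy9-1, where replicate 2 was the higher. With 2 arrays a genotype these are descriptions without a test. The part of growth or handling of a replicate was not tested.

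**Figure D4:**
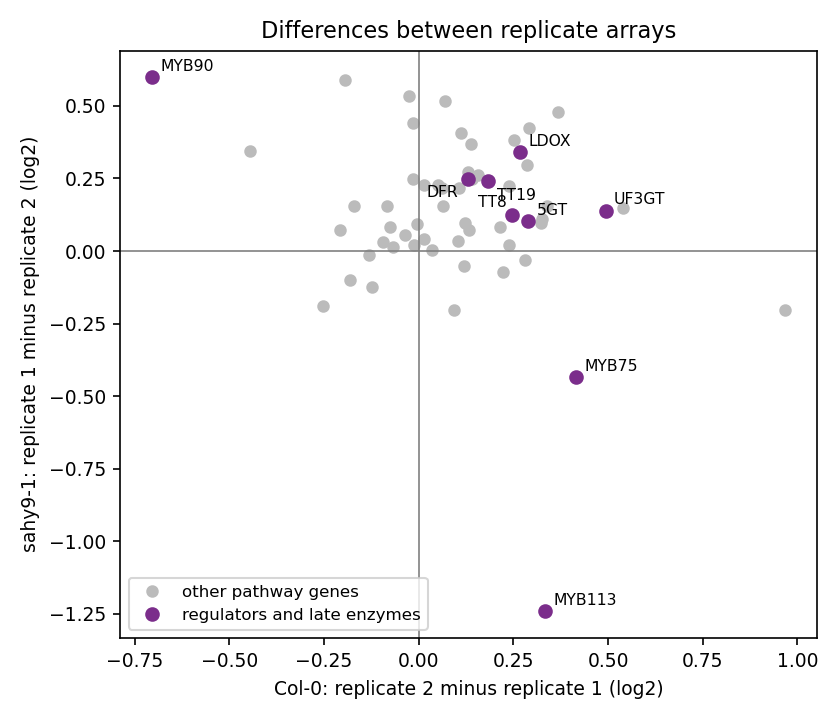
Difference between the replicate arrays within Col-0 (horizontal axis, replicate 2 minus replicate 1) and within sahy9-1 (vertical axis, replicate 1 minus replicate 2), both in log2, for the 9 loci (purple) and 50 other genes of the pathway (grey). TT8 and the 5 late genes lie together in the upper right, while MYB90, MYB75 and MYB113 lie apart.

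The other genes of the pathway were read from 10 lists with 59 genes in all, of which 50 had enough signal to be tested. Of these, 2 were at least 3-fold changed with an adjusted P of 0.05 or less in limma, both lower in sahy9-1, against 3.24% of all genes tested. These were CPL3 and GL1. GL1 passed the signal filter only through its signal in Col-0, where it was the higher. The same held for TRY, and AHA10 passed only through sahy9-1, where it was the higher. By the adjusted P alone 8 of the 50 were higher and 13 were lower, where over all genes tested 25.4% were higher and 24.0% lower, 49.4% in all. With the normexp correction 4 of these 21 had an adjusted P of up to 0.05 (CPL3, LBD38, SPL9 and MYB23), and 9 had one whichever single array was left out (CPL3, TRY, ETC1, LBD38, F3'H, AHA10, TTG2, GL1 and MYB23). Genes named below for the adjusted P alone were chosen after their values were seen.

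Of the partners of the MYB factors in the complex, TTG1 and EGL3 did not pass the test and GL3 was not tested. TTG1, the WD40 protein, had a mean of 0.96 ± 0.093 (SD, n = 2) in Col-0 and of 0.75 ± 0.011 (SD, n = 2) in sahy9-1, a difference of -0.21 (standard error 0.075, adjusted P = 0.0736 in limma). EGL3, a bHLH relative of TT8, differed by 0.097 (standard error 0.064, adjusted P = 0.266 in limma), and its dimmer probe gave -0.19. GL3, another bHLH factor, was too dim to be tested, with intensities of 56.2 and 47.9 in Col-0 and of 34.4 and 25.8 in sahy9-1.

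Several repressors of the pathway were lower in the mutant. All 10 were tested, and the median difference was -0.41. By the adjusted P 5 were lower and 1 was higher, where over all genes tested 24.0% were lower and 25.4% higher. CPL3 (AT4G01060, also called ETC3), a small MYB protein without an activation domain that competes for the bHLH partner, stood at 1.33 and 0.88 in Col-0 and at -0.38 and -0.72 in sahy9-1. Its difference was -1.66 (standard error 0.20, adjusted P = 0.0050 in limma), a 3.16-fold decrease, and a second probe gave -1.61. The small MYB genes TRY and ETC1 were lower by log2 values of -1.10 and -1.09 (adjusted P = 0.0040 and 0.0017 in limma). MYBL2, a MYB repressor of the late genes, was lower by -0.50 and SPL9, which disturbs the complex, by -0.56 (adjusted P = 0.0103 and 0.0117 in limma). LBD38, which represses MYB75 and MYB90 when nitrate is plentiful, was higher by 0.79 (adjusted P = 0.0056 in limma). LBD37 and LBD39, also in this list, differed by -0.28 and 0.036 (adjusted P = 0.0654 and 0.783 in limma). CPC, the other small MYB gene in this list, differed by -0.32 (adjusted P = 0.0947 in limma). CPL3 fell under 3-fold without Col-0 replicate 1 (-1.44) and without sahy9-1 replicate 2 (-1.49). With the normexp correction the difference of CPL3 was -1.58 (adjusted P = 0.0416), just under 3-fold, and TRY, ETC1 and MYBL2 had adjusted P of 0.17, 0.104 and 0.0981. The adjusted P was 0.0658 for MYBL2 without sahy9-1 replicate 1 and 0.0683 for SPL9 without sahy9-1 replicate 2.

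Early flavonoid enzymes, which feed both anthocyanins and flavonols, had a median difference of 0.37 over 6 genes tested. By the adjusted P 3 were higher and 0 were lower, where over all genes tested 25.4% were higher and 24.0% lower, and none reached 3-fold. F3'H, which sets the hydroxylation that yields cyanidin, was higher by 1.17 (standard error 0.21, adjusted P = 0.0124 in limma), with 1.24 and 1.43 from its other probes. CHI was higher by 0.65 (adjusted P = 0.0124) and CHS, the entry enzyme, by 0.50 (adjusted P = 0.0440), both in limma. Under the normexp correction the adjusted P of F3'H, CHI and CHS were 0.0549, 0.0542 and 0.0905. The adjusted P of CHI was also above 0.05 without Col-0 replicate 1 (0.0507) or sahy9-1 replicate 1 (0.0511), and CHS had 0.15, 0.0806 and 0.133 without Col-0 replicate 1, Col-0 replicate 2 or sahy9-1 replicate 1. F3H differed by -0.053 (adjusted P = 0.853 in limma), with 0.20 from its second probe. The flavonol activator MYB12 was lower by -0.73 (adjusted P = 0.0207 in limma), but its adjusted P was 0.0922 with the normexp correction and 0.0762 and 0.0647 without Col-0 replicate 1 or 2. MYB111 differed by 0.42 (adjusted P = 0.0957 in limma) and MYB11 was too dim to be tested.

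Other genes of anthocyanin decoration (UGT78D2, 5MAT, SCPL10, 3AT1, 3AT2, BGLU10 and UGT84A2) were all tested, and 0 of 7 passed the adjusted P in limma. Their differences ran from -0.079 to 0.35 with a median of 0.27, beside 0.31 and 0.34 for 5GT and UF3GT. In the phenylpropanoid entry, 1 of 8 genes was higher (C4H) and 2 were lower (PAL4 and 4CL2) by the adjusted P, with a median of 0.16. Of 6 flavonol conjugation genes 5 were tested and 1, UGT73C6, was higher by the adjusted P, by 1.28 (adjusted P = 0.0331 in limma) but by 0.40 with the normexp correction (adjusted P = 0.647) and with adjusted P of 0.0887 and 0.123 without sahy9-1 replicate 1 or 2. Of 5 light regulators 3 were lower by the adjusted P, where 24.0% of all genes tested were, and none by 3-fold. These were PIF3 (-0.47), COP1 (-0.24) and SPA1 (-0.22), while the median size of the difference over all genes tested was 0.28. HYH differed by 0.60 and HY5 by -0.21 (adjusted P = 0.0593 and 0.0842 in limma). For C4H, PAL4, 4CL2, PIF3, COP1 and SPA1 the adjusted P rose above 0.05 with the normexp correction and without at least 1 of the arrays.

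The seed coat branch to proanthocyanidins, which shares DFR, LDOX and TT8, was mostly dark. Of its 8 genes 6 did not pass the signal filter, among them BAN, the branch enzyme, which was well above background on no array, and TT2, its MYB factor, which was so on 1 Col-0 array. TTG2, a WRKY factor, was higher by 0.71 (adjusted P = 0.0043 in limma), and with the normexp correction its difference was 0.44 (adjusted P = 0.29). AHA10, a proton pump, was higher by 0.73 (adjusted P = 0.0065 in limma), but with the normexp correction its difference was -0.38 (adjusted P = 0.678). Among the epidermal MYB genes, whose products use the same bHLH and WD40 partners, GL1, the trichome activator, had a mean of -3.24 ± 0.15 (SD, n = 2) in Col-0 and of -4.93 ± 0.059 (SD, n = 2) in sahy9-1. Its difference was -1.69 (standard error 0.097, adjusted P = 0.0017 in limma), a 3.23-fold decrease. The difference of GL1 was -1.58, just under 3-fold, both without Col-0 replicate 2 and with the normexp correction, where the adjusted P was 0.0733. MYB23 was lower by -0.76 (adjusted P = 0.0065 in limma) and WER differed by -0.25 (adjusted P = 0.0665 in limma).

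**Figure D5:**
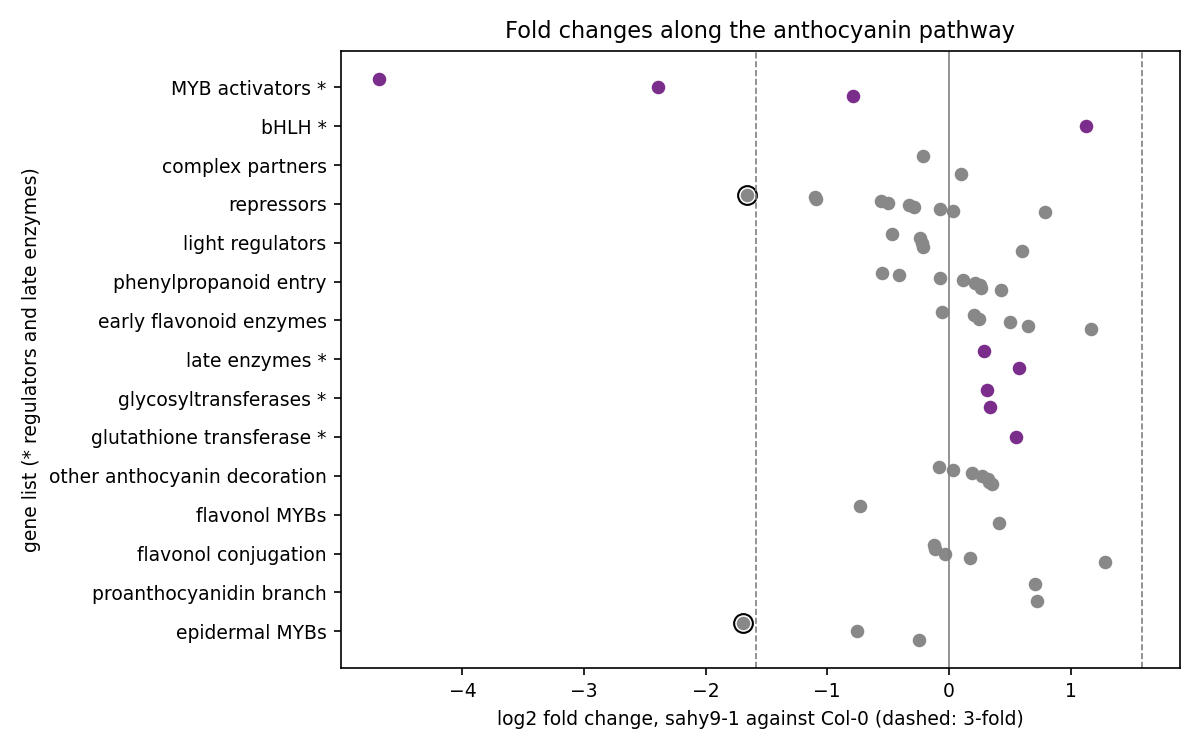
Log2 fold change of each tested gene, sahy9-1 against Col-0, in rows by role along the pathway, with the loci described here in purple (rows marked with a star), other genes in grey, a black ring for the 2 of these that were called (CPL3 and GL1) and dashed lines at 3-fold. The MYB activators spread from -4.68 (measured, MYB113) to -0.79, whereas TT8 and the late genes lie between 0.29 and 1.13.

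The genes whose values on the 4 arrays were most like the mean of the 9 loci, by Euclidean distance of centred log2 levels among 21720 other genes, included AT4G33440, AFP2, AT3G46320 and LYK3, at distances of 0.018 to 0.044. That mean had a difference of -0.52. It averages the 3 MYB activators, which were lower, with 6 loci that were higher, so it does not describe the loci one by one. Over the 9 loci the median was 0.31. The mean also took MYB113 at its measured values, which were not well above background in sahy9-1. It and the genes nearest to it thus rest in part on a level known only as a bound. How near other profiles come to their nearest genes was not tested. When only DFR, LDOX, UF3GT, 5GT and TT19 were averaged, a choice made after the values were seen, the mean difference was 0.41 and the nearest genes were CHX20, WHY3, AT5G18950, AT4G21770 and TIR, at distances of 0.023 to 0.058.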

How the data were processed

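RNA was labeled with Cy3 and hybridized to 1-color Agilent arrays, 1 per sample, on which the authors' scanner software (Agilent Feature Extraction 10.7.1.1, per the file headers and the submitters' processing notes) measured each spot. The intensity values used here were deposited by the authors with the background subtracted and were not scaled between arrays. The authors also deposited a table of log2 values relative to the Col-0 mean, whose values differed from the rescaled intensities by at most 0.0056. The methods name MAS 5.0 for its normalization.

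Starting from the intensities, outlier spots (10 to 13 per array) were left out, each array was divided by its 75th percentile before log2 was taken, and where a gene had several probes the brightest on average was used. Probes were matched by transcript accession to TAIR10.1 loci, which gave 25430 loci. Genes that reached an intensity of 100 on both replicates of either genotype were tested with limma 3.58.1 in R 4.3.3 as unpaired groups, with Benjamini-Hochberg adjustment. Calls needed a 3-fold change and an adjusted P no higher than 0.05, the thresholds of the methods. The t-test of the methods was run as an alternative because 2 arrays a genotype leave it few degrees of freedom. The other alternatives were background correction (normexp, on the median spot signal since the mean is not in the files used here), scaling, filter, probes per gene, outlier spots, variance model, a replicate block and leaving out each array. The code was tested on simulated arrays. Figures were drawn with matplotlib 3.10.9.

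All 10 loci are named. From the lists the rule named called genes (at most 3 from a list further from the complex) and, in the lists nearest to the 10 loci, genes that could not be tested, with APUM23, the neighbors of the MYB cluster and the 5 nearest profiles. Other list genes in the text were chosen after their values were seen. One of those 5 profiles matched no locus and is not named. The loci and lists were chosen with earlier results of these data known. Their sequences were not used here. The number of arrays, 2 per genotype, limits the precision.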

Additional observations from a re-analysis of the deposited data

How the results depend on the processing

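For all 9 loci that passed the signal filter the direction was the same under each of the 13 alternatives that give a fold change. The counts of 2 loci at least 3-fold lower and 0 at least 3-fold higher were the same too. However, the other filters, the kept outlier spots and the replicate block left all 9 fold changes as they were. Averaging over probes changed only TT19, and median scaling and the authors' table hardly moved any of the 9. The agreement thus rests on normexp, quantile normalization and leaving out each array. The median of the 9 loci ranged from 0.17 to 0.45, both ends from leaving out a Col-0 array. Normexp moved MYB113 to -2.25 and TT8 to 0.74, by more than the SD of their replicates. It also cut the calls over all genes from 705 (51.1% of them higher) to 324 (23.2% higher) and those in the pathway lists from 2 to 0. The t-test of the methods left 15 genes and 0 in the lists. The adjusted P alone gave 10735 and 21. Without 1 array at a time the calls ranged from 597 to 852 and from 1 to 2 in the lists. Same-numbered arrays of the genotypes deviated together (r = 0.44 across genes), but nothing in the labels says that a number marks 1 experiment. With the replicate block there were 727 calls over all genes and 2 in the lists. Signal over background limits MYB113 in sahy9-1 and MYB114 throughout, and the signal filter kept 9 of the 59 other genes from a test.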
